A study of Rattus norvegicus with 99 samples.

Results

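The failing right ventricle of rats with pulmonary artery banding was described from 8 of the 99 whole-heart RNA-sequencing libraries of the series. They were chosen by sample title and comprise every right ventricle (RV) library of the banded animals in heart failure (PAB-F, n = 3) and of the older sham-operated animals (n = 5). The animals were male F1 rats of Wistar Kyoto mothers and Lewis fathers, operated when young. A clip that did not narrow the vessel when placed, but did so as the animal grew, was put around the pulmonary artery in PAB-F. PAB-F hearts and those of the matching shams (Sham-RF, n = 2) were taken at an age of 27 weeks, 21 weeks after surgery, and those of the shams matched to aortic banding (Sham-LF, n = 3) at 30 weeks, 24 weeks after surgery. These are the ages and times of the sample labels, and the treatment protocol and the study's methods give ones that differ from them by up to a few weeks. Both sham groups are called the older shams here. Each animal gave 1 polyadenylated RNA library of bulk tissue from the RV, the left ventricle (LV) and the interventricular septum (Spt).

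The RV is a thin-walled chamber that works against the low resistance of the lung circulation. When the outflow is narrowed, its cardiomyocytes enlarge and return to genes of the fetal heart, such as skeletal α-actin (Acta1), β-myosin heavy chain (Myh7) and the natriuretic peptides (Nppa, Nppb), which promote salt excretion and vessel relaxation. The failing RV is also known for altered matrix, altered calcium handling and reduced capacity for oxidative metabolism.

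The 8 libraries held 12.8 to 18.0 M (mega) counts, and the 10 most abundant genes took 12.9% to 15.4% of them. Principal component 1 held 55.7% of the variance and placed Sham-LF replicates 1 and 2 at the low end (-35.4 and -28.8), Sham-RF replicate 1 at -11.0 and Sham-RF replicate 2 at 0.0065. PAB-F replicate 1 lay at 8.01, below Sham-LF replicate 3 at 10.2, and PAB-F replicates 2 and 3 lay at 24.6 and 32.3. The banded and sham libraries therefore overlapped on this component. The tissue field of the labels calls the RV samples left ventricle, while title and source name call them right, so the chamber was checked with 50 genes that differed between RV and LV in 25 other animals of the series. All 8 RV libraries fell on the RV side of their own LV library. Not all of the 25 other animals did so, the lowest mean log2 difference of RV from LV among them being -0.349. Sln and Myl4, markers of atrial myocytes, stood out in PAB-F replicate 3 (300 and 420 counts per mega of counts, CPM) and in Sham-LF replicate 3 (206 and 169 CPM). In the other 6 libraries Sln lay between 3.06 and 8.89 CPM and Myl4 between 3.11 and 10.0 CPM. Myl7, another such marker, was highest in the same pair of libraries. The main counts were therefore also made without both libraries.

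The promoters of 4 genes that carry the main contrasts are shown because the letters of known muscle and start-site motifs could be looked up in them. They are the 250 bases before the annotated start in RefSeq (GRCr8), each written 5′ to 3′ on the strand of its gene. Acta1 (chr19:68784195-68784444, minus strand), Ankrd23 (chr9:46274511-46274760, minus strand) and Nppb (chr5:163699758-163700007, plus strand) are fetal or stretch genes, and Eno3 (chr10:55868936-55869185, plus strand) is the muscle enolase. Capitals mark the MCAT motif CATTCC, the CArG box and the TATA box letters TATAAA, on either strand. In Nppb the TATAAA letters run on the opposite strand, 208 bases before the start, and are a match of letters only.
Acta1: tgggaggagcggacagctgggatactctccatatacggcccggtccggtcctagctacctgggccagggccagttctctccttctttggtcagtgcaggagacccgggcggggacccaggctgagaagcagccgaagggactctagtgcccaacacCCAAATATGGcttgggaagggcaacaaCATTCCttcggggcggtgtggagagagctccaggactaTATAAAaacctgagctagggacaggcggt
Ankrd23: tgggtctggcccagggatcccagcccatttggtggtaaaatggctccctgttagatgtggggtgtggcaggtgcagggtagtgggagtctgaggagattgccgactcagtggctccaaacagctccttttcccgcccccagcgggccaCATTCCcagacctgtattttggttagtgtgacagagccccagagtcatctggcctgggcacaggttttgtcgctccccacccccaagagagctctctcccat
Nppb: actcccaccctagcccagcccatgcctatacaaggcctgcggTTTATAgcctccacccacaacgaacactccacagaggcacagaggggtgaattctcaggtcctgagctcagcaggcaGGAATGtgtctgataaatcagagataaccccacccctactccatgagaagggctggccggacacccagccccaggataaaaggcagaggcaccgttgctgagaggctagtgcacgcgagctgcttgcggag
Eno3: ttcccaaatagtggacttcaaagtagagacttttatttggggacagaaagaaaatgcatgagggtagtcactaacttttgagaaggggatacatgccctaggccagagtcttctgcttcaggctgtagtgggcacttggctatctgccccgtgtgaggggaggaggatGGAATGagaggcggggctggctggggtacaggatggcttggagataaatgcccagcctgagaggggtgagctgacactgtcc

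Of the 12 named rises, 10 had a promoter in RefSeq, and 4 of these (Acta1, Ankrd23, Tceal7 and Abca4) held CATTCC, which occurred in 12.1% of all 33469 promoters. Of the 8 named falls, 5 had a promoter and 1 of them (Eno3) held it. The CArG box was found in Acta1 alone among the 10 rises and in 1.5% of all promoters, TATAAA in 1 of 10 and 12.9%, the E-box CANNTG in 8 of 10 and 65.5%, GATAAG in 1 of 10 and 6.18%, and the AP-1 site TGANTCA in 0 of 10 and 6.34%. All motifs were searched on both strands, and a match describes letters and not a bound site.

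The first question was which genes differed between the failing RV and that of the older shams. Skeletal α-actin, the stretch-responsive ankyrin repeat protein gene Ankrd23, Tceal7, the enkephalin precursor gene Penk and the growth factor gene Tgfb2 were among the genes that rose, and the muscle enolase gene Eno3 was among those that fell. With edgeR's quasi-likelihood test, 23 of 11205 genes tested (0.205%) had a Benjamini-Hochberg adjusted p under 0.05 and are called differentially expressed genes (DEGs). They were 15 that rose (0.134%) and 8 that fell (0.0714%). At an unadjusted p under 0.05 there were 2766 genes (24.7%), of which 1416 (12.6%) were higher and 1350 (12%) lower. The largest adjusted p among the DEGs was 0.0489, and 401 further genes had an adjusted p from 0.05 to 0.1. Phyhd1, Rita1 and Tgfb2 lay just inside the threshold (0.0489), and Mybpc2 (0.0562), Cd69 and Klhl6 (both 0.0600) just outside it. In bulk tissue, fewer cells of a type and less RNA per cell cannot be told apart.

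The number of DEGs rested on single libraries. It was 0 without PAB-F replicate 2 or 3, without either Sham-RF replicate and without Sham-LF replicate 1 or 2, but 524 without PAB-F replicate 1 and 472 without Sham-LF replicate 3. It was also 0 without both libraries with atrial markers, where 2188 genes had an unadjusted p under 0.05, and 0 without Sham-LF replicates 1 and 2, where there were 1649. In each of the 18 alternative fits all 23 genes kept their sign and an unadjusted p under 0.05, the largest being 0.0398. Leaving out libraries could hardly turn their direction, as none of the 23 overlapped between the groups. They were also chosen in these same libraries, so the alternative fits are no independent check of them.

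The strongest rise by p was that of Acta1, the skeletal form of α-actin and a classical marker of cardiac overload. It measured 1662, 4415 and 3551 CPM in the PAB-F libraries, 708 and 650 CPM in Sham-RF, and 736, 689 and 517 CPM in Sham-LF. Every banded library lay above every sham library, and PAB-F replicate 1 lay closest to the shams. The log2 fold change was 2.28 ± 0.255 (standard error), or 4.86-fold (adjusted p = 0.0259, edgeR).

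Ankrd23, a titin-binding muscle ankyrin repeat protein of the sarcomere, showed the largest log2 fold change of the DEGs. Its level was 94.2, 646 and 343 CPM in PAB-F, 36.0 and 24.3 CPM in Sham-RF, and 16.9, 30.3 and 26.4 CPM in Sham-LF. The groups did not overlap, although PAB-F replicate 2 lay far above replicate 1. The difference was 3.75 ± 0.479 on the log2 scale, 13.5-fold (adjusted p = 0.0259, edgeR).

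Tceal7, of the transcription elongation factor A-like family, followed the same order of libraries. It stood at 23.6, 127 and 67.0 CPM in PAB-F against 8.31 and 7.21 CPM in Sham-RF and 7.59, 9.54 and 3.59 CPM in Sham-LF. No sham reached the lowest banded library. The log2 fold change was 3.34 ± 0.455, 10.1-fold (adjusted p = 0.0259, edgeR).

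Penk encodes proenkephalin, the precursor of opioid peptides. Its banded libraries were close to each other, at 94.5, 131 and 120 CPM, against 55.0 and 43.7 CPM in Sham-RF and 55.1, 35.0 and 33.6 CPM in Sham-LF. The groups were separate with little spread within either. The log2 fold change was 1.37 ± 0.182, 2.58-fold (adjusted p = 0.0259, edgeR).

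Nppb and Nppa, which encode the natriuretic peptides BNP and ANP, did not pass the threshold. Nppb measured 172, 854 and 584 CPM in PAB-F, 89.1 and 46.1 CPM in Sham-RF, and 64.3, 65.1 and 146 CPM in Sham-LF, so that its groups did not overlap. Its log2 fold change was 2.71 ± 0.469 (adjusted p = 0.0600, edgeR). Nppa measured 285, 5567 and 5223 CPM in PAB-F, 50.9 and 47.8 CPM in Sham-RF, and 76.6, 98.2 and 1218 CPM in Sham-LF. The highest sham, Sham-LF replicate 3, exceeded PAB-F replicate 1, and this sham is one of the 2 libraries with atrial markers. The log2 fold change of Nppa was 3.63 ± 1.22 (adjusted p = 0.136, edgeR), and the part of atrial tissue in it was not tested. The other members of the natriuretic system were the receptors and processing enzymes, of which Npr2 alone had an unadjusted p under 0.05 (-0.33 ± 0.0835, adjusted p = 0.0919).

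**Figure D1:**
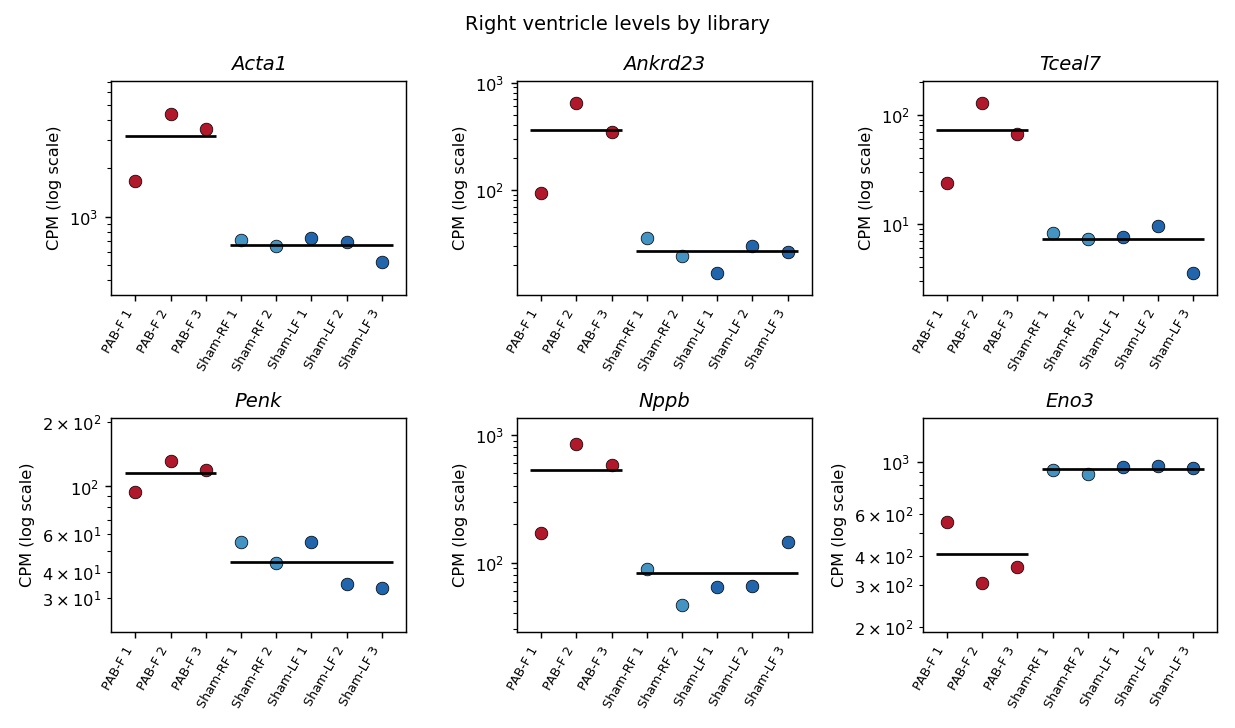
Levels of Acta1, Ankrd23, Tceal7, Penk, Nppb and Eno3 in the 8 RV libraries, in CPM on a log scale, with 1 point per library (PAB-F red, Sham-RF light blue, Sham-LF dark blue) and a line at the mean of PAB-F and of all older shams. For each of the 6 genes the 3 PAB-F points lie on one side of all 5 shams, with PAB-F replicate 1 nearest to them.

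A further pair of rises was in genes of membrane and signalling proteins of low level. Ptprt, a receptor-type tyrosine phosphatase, stood at 5.87, 17.0 and 13.1 CPM in PAB-F and at 1.58 to 2.77 CPM in the shams, a log2 fold change of 2.60 ± 0.317. Sypl2, which encodes mitsugumin 29 of the triad membrane, stood at 5.73, 20.3 and 14.4 CPM in PAB-F and at 1.65 to 3.28 CPM in the shams, a log2 fold change of 2.52 ± 0.354. In both genes the lowest banded library was PAB-F replicate 1. Maoa, the mitochondrial enzyme that degrades noradrenaline and serotonin, measured 322, 816 and 864 CPM in PAB-F against 109 and 182 CPM in Sham-RF and 127, 202 and 215 CPM in Sham-LF. It rose 4.00-fold (log2 fold change 2.00 ± 0.314, adjusted p = 0.0489).

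Among the other genes that rose were a ligand, a guidance factor and a phosphatase. Tgfb2, the ligand TGF-β2, measured 22.6, 65.4 and 41.9 CPM in PAB-F and 11.6 to 15.1 CPM in the shams (1.64 ± 0.264, adjusted p = 0.0489). Sema3d, a secreted semaphorin, lay close together in the banded libraries at 8.84, 9.53 and 8.04 CPM and between 1.20 and 3.64 CPM in the shams (log2 fold change 1.69 ± 0.269). Dusp8, a phosphatase of MAP kinases, measured 14.6, 16.4 and 20.9 CPM against 5.46 to 8.89 CPM (log2 fold change 1.30 ± 0.174). All 3 were without overlap between groups. Casq1, the calsequestrin of fast skeletal muscle, measured 54.7, 75.6 and 67.7 CPM against 25.2 to 37.5 CPM (log2 fold change 1.05 ± 0.137, adjusted p = 0.0259). The skeletal muscle markers as a group showed no such difference, with summed levels of 7.12 to 10.5 CPM in PAB-F and 8.79 to 13.9 CPM in the shams, and only 4 of 9 of them were detected well enough to test. Abca4, a retinoid transporter, rose at low counts (1.80, 3.12 and 2.61 CPM against 0.526 to 0.785 CPM, log2 fold change 1.98). Steap2, a metalloreductase (log2 fold change 1.15), and Rita1, an inhibitor of Notch signalling (0.57), also rose, and lay outside the rule for named genes.

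Among the DEGs the largest fall in CPM was that of Eno3, the enolase of adult muscle, which catalyses the next-to-last step of glycolysis. It measured 553, 306 and 358 CPM in PAB-F, 921 and 886 CPM in Sham-RF, and 949, 958 and 940 CPM in Sham-LF. The shams hardly varied and no banded library came near them. The log2 fold change was -1.20 ± 0.173 (adjusted p = 0.0355, edgeR), a level 2.29 times lower than in the shams.

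Pla2g2a, a secreted phospholipase, had a more negative log2 fold change (-1.49 ± 0.232, adjusted p = 0.0489). It measured 34.2, 27.8 and 28.9 CPM in PAB-F against 89.3 and 58.0 CPM in Sham-RF and 106, 112 and 61.8 CPM in Sham-LF, so the banded libraries were alike and the shams spread widely. Crybb1, a β-crystallin (log2 fold change -1.33), and Colq, the collagen tail that anchors acetylcholinesterase (-1.04), fell as well. Smaller falls were those of Phyhd1 (-0.70), a dioxygenase, and Usp40 (-0.61), a ubiquitin protease. Next in p came Cd69, an activation antigen of lymphocytes, and the transcription factor gene Sox9, with log2 fold changes of -1.32 and -1.18, without passing the threshold (adjusted p = 0.0600 for both).

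All 23 DEGs were without overlap between banded and sham libraries, as were 14.6% of all genes tested (7.09% higher and 7.5% lower). In 20 of them PAB-F replicate 1 was the banded library nearest to the shams, in 2 it was replicate 2 and in 1 replicate 3. The median absolute log2 difference from the shams over these genes was 1.06 in replicate 1, 1.64 in replicate 2 and 1.57 in replicate 3. The 3 banded hearts were thus of unequal distance from the shams.

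The choice of sham group was examined next. Against Sham-RF alone, the shams of the same age, no gene was a DEG in edgeR (0%; lowest adjusted p = 0.258), with 1254 of 11375 genes at an unadjusted p under 0.05 (11%), while DESeq2 gave 89 DEGs. Without PAB-F replicate 1 the same comparison gave 79 in edgeR. Against Sham-LF alone edgeR gave 0 (0%; lowest adjusted p = 0.106), with 2838 genes at an unadjusted p under 0.05 (24.9%), and this count of DEGs was 212 without PAB-F replicate 1 and 3301 without Sham-LF replicate 3, which leaves the pair of shams lowest on principal component 1. All 23 DEGs of the pooled comparison had the same sign and an unadjusted p under 0.05 against either sham group. The sign followed from their lack of overlap with any sham library. As these DEGs were chosen against both groups pooled, this is no independent check of the sham choice. Their smallest absolute log2 fold change was 0.59 against Sham-RF and 0.56 against Sham-LF. For Acta1 the log2 fold change was 2.25 against Sham-RF and 2.31 against Sham-LF, for Ankrd23 it was 3.60 and 3.88, for Penk 1.23 and 1.48, and for Eno3 -1.15 against Sham-RF.

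The lowest p against Sham-RF belonged to genes near the low end of detection, among them Chrna1, a subunit of the acetylcholine receptor of muscle (log2 fold change 2.36 ± 0.34), and the lymphoid genes Ncr1 (-1.60 ± 0.237) and Dusp2 (-1.53 ± 0.238). Arc, an activity-induced gene (-1.74 ± 0.272), had its highest levels in Sham-RF replicates 1 and 2 (28.0 and 13.3 CPM) and lay between 5.05 and 6.42 CPM in the other 6 libraries. Both sham groups did not differ by any DEG (0%, lowest adjusted p = 0.875, edgeR), with 470 genes (4.13%) at an unadjusted p under 0.05. None of the 23 DEGs had an unadjusted p under 0.05 between the sham groups, but these genes were chosen with both groups pooled. Between the shams there were 254 DEGs without Sham-LF replicate 3 and 3 without Sham-RF replicate 2. The lowest p between the shams were those of Arc (1.86 ± 0.275, Sham-RF minus Sham-LF), Noct (-0.81 ± 0.149), Apold1 (1.78 ± 0.344) and Btg2 (1.00 ± 0.199), genes that respond within minutes to hours to stimuli or to the time of day.

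Gene groups were then described by the share of their members that differed, beside the same share over all genes (12.6% higher and 12% lower at an unadjusted p under 0.05; median log2 fold change near 0, with 49.9% of genes above it). These shares of all genes themselves moved when libraries were left out, and counts of group members without a library are to be read against them. They were 6.88% higher and 6.04% lower without PAB-F replicate 2, 6.74% and 6.02% when PAB-F replicate 3 was left out, 9.39% and 9.15% without Sham-LF replicate 1 and 9.17% and 8.81% without Sham-LF replicate 2. They rose to 13.4% and 13.2% without PAB-F replicate 1 and to 16.9% and 15.1% without Sham-LF replicate 3. Without both libraries with atrial markers they were 10.4% and 9.15%, and without Sham-LF replicates 1 and 2 they were 7.28% and 7.43%. Stretch sensing and Z-disc proteins, which anchor and monitor the sarcomere, had 18 members tested, of which 11 were higher and 0 lower (median 0.48), with Ankrd23 as the only DEG. Without both libraries with atrial markers 11 were again higher, and leaving out single libraries gave 8 to 11. Xirp2, which binds actin at the intercalated disc, measured 521, 2577 and 1348 CPM in PAB-F and 355 to 499 CPM in the shams (1.83 ± 0.371, adjusted p = 0.0798). Nrap, which links actin bundles to the membrane, measured 718, 1120 and 975 CPM against 438 to 609 CPM (0.87 ± 0.149, adjusted p = 0.0600). Ankrd1, a paralogue of Ankrd23, measured 9430, 16473 and 12152 CPM against 5912 to 10124 CPM, with PAB-F replicate 1 inside the range of the shams (0.67 ± 0.211, adjusted p = 0.124).

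Contractile filament proteins went both ways, with 4 of 22 higher and 3 lower (median -0.07) and Acta1 as the only DEG. Myh7, the slow β-myosin, measured 5828, 12732 and 8399 CPM in PAB-F and 3916 to 4780 CPM in the shams. The groups did not overlap (1.05 ± 0.208, adjusted p = 0.0768). Myh6, the fast α-myosin of the adult rat heart, measured 16357, 7785 and 11531 CPM against 15415 to 18597 CPM, with PAB-F replicate 1 inside the range of the shams (-0.55 ± 0.209, adjusted p = 0.160). Cardiac troponin I (Tnni3) measured 9901, 7511 and 7668 CPM against 11157 to 17136 CPM (-0.68 ± 0.176, adjusted p = 0.0930).

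In calcium cycling, 2 of 17 genes were higher and 4 lower (median 0.02), with no DEG. Trdn and Hrc, proteins of the sarcoplasmic reticulum that bind calsequestrin or calcium, had log2 fold changes of -0.89 ± 0.207 and -0.81 ± 0.179 (adjusted p = 0.0888 and 0.0862). The calcium pump gene Atp2a2 (-0.18 ± 0.143) and the release channel gene Ryr2 (0.06 ± 0.104) showed values near 0. Among ion channels 4 of 28 were higher and 2 lower (median 0.24, no DEG). The count of 4 was 9 without PAB-F replicate 1, 11 of 27 without Sham-LF replicate 3 and 8 of 27 without both libraries with atrial markers. Hcn2, a pacemaker channel, measured 128, 210 and 245 CPM against 39.1 to 113 CPM (1.52 ± 0.331, adjusted p = 0.0836), and Cacna1g, a T-type calcium channel of the fetal heart, measured 9.95, 28.8 and 28.9 CPM against 5.11 to 8.82 CPM (1.61 ± 0.309, adjusted p = 0.0721). Neither gene overlapped between groups.

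Matricellular and fibril-organising proteins, which sit between cells and fibres, had 9 of 27 higher and 0 lower (median 0.21), and collagens had 3 of 15 higher and 1 lower (median 0.09), with no DEG in either. The count of 9 was 5 without PAB-F replicate 2 and 8 without both libraries with atrial markers. Thbs4 (thrombospondin-4) measured 1.66, 39.7 and 20.5 CPM in PAB-F and 0.729 to 1.70 CPM in the shams, so that PAB-F replicate 1 lay below the highest sham (3.99 ± 0.722, adjusted p = 0.0650). Postn (periostin) measured 6.98, 96.0 and 33.9 CPM against 6.46 to 16.6 CPM, and Spp1 (osteopontin) 2.00, 58.6 and 14.9 CPM against 0.526 to 4.65 CPM. In all 3 genes PAB-F replicate 1 stood among the shams and replicate 2 far above them. Cilp, a matrix protein that binds TGF-β, did not overlap, at 8.91, 29.5 and 14.8 CPM against 2.85 to 6.05 CPM (2.02 ± 0.347, adjusted p = 0.0600). The fibrillar collagens Col1a1 (0.26 ± 0.192) and Col3a1 (0.32 ± 0.204) overlapped between groups, and Col8a1, a short-chain collagen, had a log2 fold change of 1.22 ± 0.286 (adjusted p = 0.0889). Crosslinking and turnover enzymes had 4 of 26 higher and 2 lower (median 0.08), and 8 higher without PAB-F replicate 1.

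Of the ligands, receptors and inhibitors of TGF-β, activin and BMP signalling, 11 of 34 were higher and 3 lower (median 0.14). The count of 11 was 6 without PAB-F replicate 2, 5 without PAB-F replicate 3 and 7 without Sham-LF replicate 1 or 2, and 10 without both libraries with atrial markers. Among the ligands, Tgfb2 was a DEG, while Tgfb1 (0.13 ± 0.130) and Tgfb3 (0.09 ± 0.165) were not, with all shams and banded libraries of Tgfb1 between 35.0 and 50.8 CPM. The stress cytokine gene Gdf15 had a log2 fold change of 1.47 ± 0.374 (adjusted p = 0.0919). Ltbp2, a matrix protein of the latent TGF-β binding family, measured 5.11, 72.8 and 26.2 CPM against 4.21 to 9.13 CPM (2.47 ± 0.601, adjusted p = 0.0918). In the EGF family 3 of 7 were higher and 1 lower (median 0.38), with the ligand gene Tgfa at 1.83 ± 0.464, and 1 was higher without PAB-F replicate 3, Sham-RF replicate 2 or Sham-LF replicate 1 or 2. Adrenergic, angiotensin, endothelin and cyclic nucleotide genes had 3 of 30 higher and 2 lower (median 0.27), with 0 higher without PAB-F replicate 2 or Sham-LF replicate 1 or 2, 1 without PAB-F replicate 3 and 6 without Sham-LF replicate 3. Hypertrophic transcription factors and calcineurin targets had 5 of 26 higher and 3 lower (median 0.25). The count of 5 was 1 without PAB-F replicate 3 or Sham-LF replicate 2, 2 without PAB-F replicate 2 or Sham-LF replicate 1 and 3 without Sham-RF replicate 1, but 9 without PAB-F replicate 1 and 11 without Sham-LF replicate 3. Of this group Rcan1, a feedback inhibitor of calcineurin, measured 326, 743 and 554 CPM against 213 to 301 CPM (1.02 ± 0.231, adjusted p = 0.0888).

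Cell cycle genes were higher in 9 of 26 and lower in 0 (median 0.37), and 23 of the 26 had a log2 fold change above 0. The count of 9 was 4 without PAB-F replicate 2, and 5 without Sham-LF replicate 1, without Sham-LF replicate 3 or without both libraries with atrial markers. Their summed level was 372 to 483 CPM in PAB-F and 289 to 337 CPM in the shams. Ccnd2, cyclin D2, which drives entry into the cycle, measured 26.2, 79.6 and 69.3 CPM against 19.0 to 26.1 CPM (1.33 ± 0.287, adjusted p = 0.0836), and Mki67, a marker of dividing cells, 8.43, 8.45 and 8.15 CPM against 3.81 to 7.62 CPM (0.55 ± 0.226, adjusted p = 0.180). Both were without overlap, by a narrow margin for Ccnd2 in PAB-F replicate 1. Immediate early genes, which respond within minutes to stimuli, had medians of opposite sign against the sham groups taken alone. Against the pooled shams 0 of 16 were higher and 1 lower (median -0.07), namely Fos, which was highest in Sham-RF replicates 1 and 2 (25.3 and 20.8 CPM). Against Sham-RF alone 8 of 16 were lower and 0 higher (median -0.61), where 5.64% of all genes were lower and 5.38% higher, and against Sham-LF alone 4 were higher and 0 lower (median 0.19), where the shares were 12.9% higher and 12% lower.

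Genes of energy metabolism were lower more often than higher. Of 76 nuclear-encoded subunits of the respiratory chain tested, 50 were lower and 0 higher at an unadjusted p under 0.05, against 12% lower over all genes, and 72 lay below 0 (median -0.37), yet none was a DEG. By complex, 20 of 32 subunits of complex I were lower (median -0.39), 2 of 4 of complex II (-0.19), 5 of 9 of complex III (-0.28), 10 of 14 of complex IV (-0.37) and 13 of 17 of ATP synthase (-0.38). Cox8b, a muscle subunit of complex IV, measured 2785, 1979 and 1921 CPM against 3109 to 4844 CPM (-0.77 ± 0.188, adjusted p = 0.0918). Without Sham-LF replicates 1 and 2, which had the highest summed levels of the group (120228 and 108177 CPM against 90928 to 94904 CPM in the other shams and 73454 to 88663 CPM in PAB-F), the median was -0.21 and 21 were lower. The count of 50 was 21 without PAB-F replicate 2, 12 without PAB-F replicate 3, 33 without Sham-LF replicate 2 and 37 without both libraries with atrial markers, with 0 higher each time. Against Sham-RF alone 3 of the 76 were lower (median -0.25), beside 5.64% of all genes, and against Sham-LF alone 56 were lower (median -0.44), with 0 higher in both.

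Fatty acid uptake and oxidation had 1 of 37 higher and 10 lower (median -0.13; 5 lower without PAB-F replicate 2, 6 without PAB-F replicate 3, 4 higher and 5 lower without both libraries with atrial markers), and glucose uptake and glycolysis 2 of 28 higher and 7 lower (median -0.10; 4 lower without PAB-F replicate 2 or without both libraries with atrial markers, 4 higher without Sham-LF replicate 3), with Eno3 the only DEG of both. Pfkfb1, which makes an activator of glycolysis, had a log2 fold change of -1.41 ± 0.267 (adjusted p = 0.0692), and Hk1, the hexokinase of the fetal heart, one of 0.66 ± 0.136 (adjusted p = 0.0836). Decr1 and Eci1, enzymes for the oxidation of unsaturated fatty acids, had log2 fold changes of -0.62 ± 0.145 and -0.70 ± 0.154. Creatine kinases and creatine transport had 0 of 6 higher and 3 lower, and 1 lower without PAB-F replicate 3. Heat shock and protein turnover genes had 4 of 22 higher and 2 lower, hypoxia and vessel growth genes 3 of 28 higher and 2 lower, and mediators of oxidative stress and inflammation 4 of 26 higher and 2 lower. Without Sham-RF replicate 1 there were 6 lower in the heat shock group and 7 higher in the hypoxia group, without PAB-F replicate 2 there were 2 and 1 higher in them, and without PAB-F replicate 1 there were 8 higher in the oxidative stress group. In the oxidative stress group Nox4, an NADPH oxidase, measured 7.18, 4.79 and 3.94 CPM against 1.79 to 2.92 CPM (1.19 ± 0.233, adjusted p = 0.0763), with PAB-F replicate 1 the highest.

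**Figure D2:**
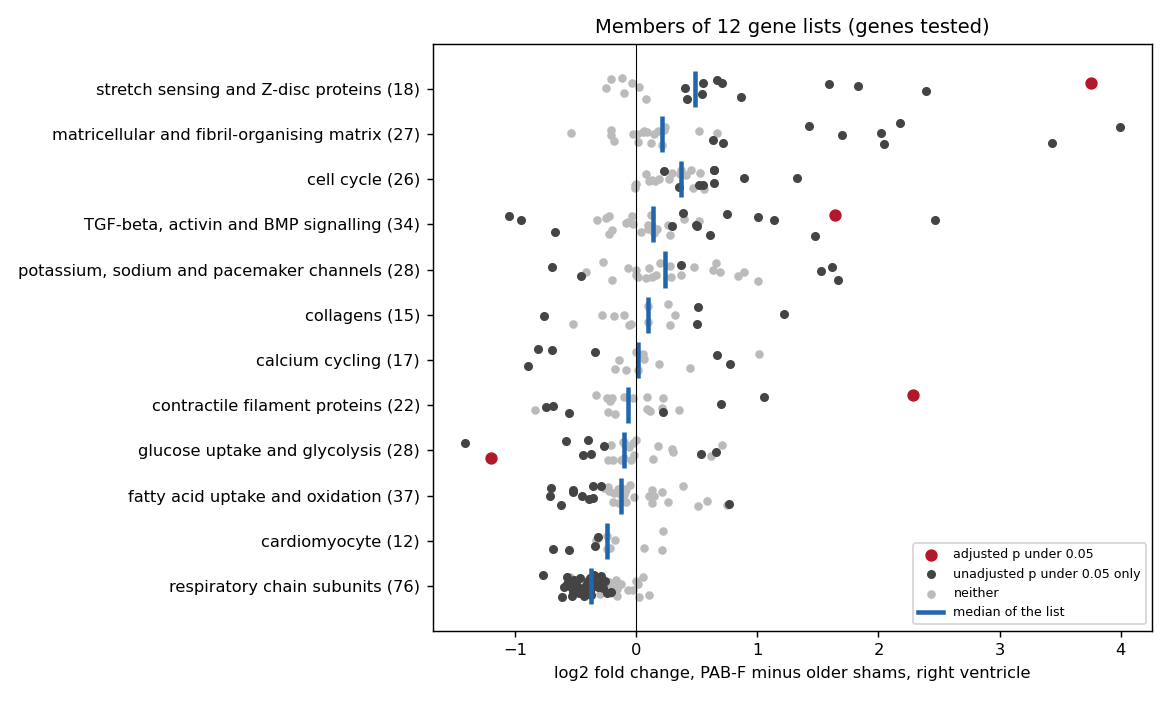
Log2 fold changes (PAB-F minus older shams, RV) of the tested members of selected gene groups, 1 point per gene, with the number tested in parentheses. Red points have an adjusted p under 0.05, dark points an unadjusted p under 0.05 only, grey points neither, and blue bars are the group medians, from 0.48 for stretch sensing and Z-disc proteins to -0.37 for respiratory chain subunits.

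Markers of cell types were set beside these groups. Of 12 cardiomyocyte markers 0 were higher and 4 lower (median -0.24), and their summed level was 106848 to 123958 CPM in PAB-F and 125738 to 150532 CPM in the shams, without overlap. The count of 4 was 1 without PAB-F replicate 2, without PAB-F replicate 3 or without both libraries with atrial markers. The sum was lower in the same libraries as the respiratory chain, and its part in that result was not tested. Of 8 myofibroblast markers, which include Postn and Tnc from the matrix group, 6 were higher and 0 lower (median 1.02), with sums of 95.7 CPM in PAB-F replicate 1, 148 CPM in replicate 3 and a higher one in replicate 2, and of 91.9 to 121 CPM in the shams. Without PAB-F replicate 2 the count of 6 was 2. Fibroblast markers had 1 of 11 higher and 3 lower (4592 to 6125 against 4712 to 7466 CPM), with 1 lower without PAB-F replicate 1 or 2 and 5 without both libraries with atrial markers. Macrophage markers had 1 of 12 higher and 0 lower, with all 12 above 0 (median 0.26), but 10 were higher once PAB-F replicate 1 was left out, and 0 when replicate 2 or 3 was. Their sums were 419 to 930 CPM against 481 to 713 CPM. Endothelial markers had 0 of 11 in either direction (2799 to 4006 against 3039 to 4307 CPM), and 4 lower without PAB-F replicate 1.

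Other marker groups overlapped in their sums. Smooth muscle and pericyte markers lay at 710 to 771 CPM in PAB-F and 572 to 740 CPM in the shams, lymphocyte markers at 27.9 to 41.8 and 25.0 to 34.8 CPM, neutrophil and mast cell markers at 42.4 to 67.8 and 54.9 to 74.9 CPM, and mesothelial markers at 38.2 to 86.0 and 26.7 to 74.6 CPM. Adipocyte markers lay at 89.7 to 101 and 85.3 to 110 CPM, and erythroid markers at 869 to 2065 and 1334 to 2488 CPM. Atrial markers had 0 of 8 in either direction, but their sum reached 1964 CPM in PAB-F replicate 3 and 1110 CPM in Sham-LF replicate 3, against 118 to 203 CPM in the other 6 libraries. Without PAB-F replicate 3 the log2 fold change of Myl4 turned from 1.94 to -2.51, and without Sham-LF replicate 3 it was 5.03.

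**Figure D3:**
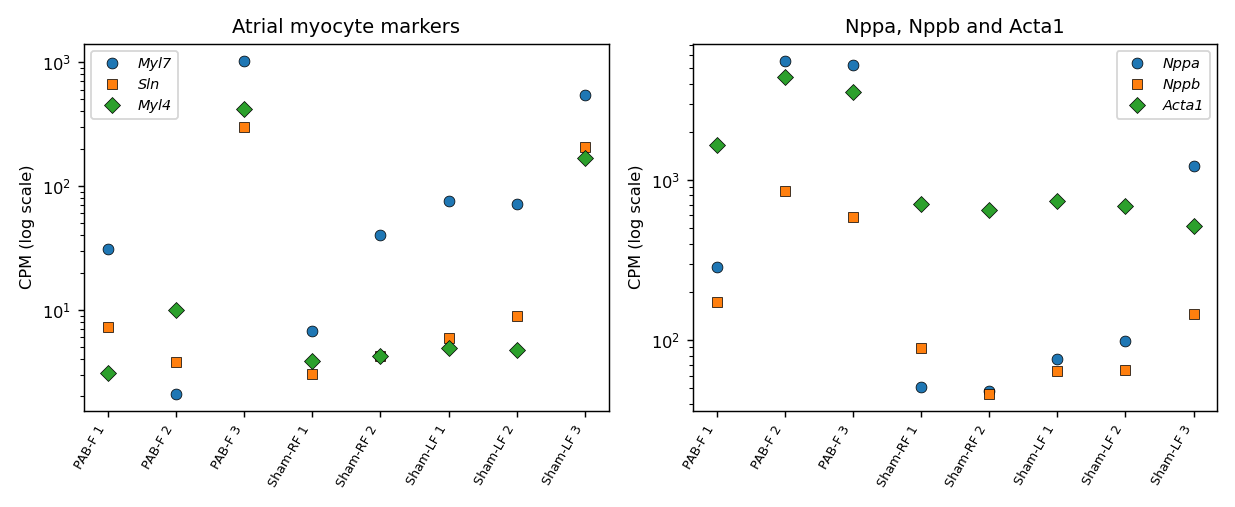
CPM on a log scale in the 8 RV libraries of the atrial myocyte markers Myl7, Sln and Myl4 (left) and of Nppa, Nppb and Acta1 (right), with 1 symbol per gene. The atrial markers are high in PAB-F replicate 3 and Sham-LF replicate 3, and Nppa is high in PAB-F replicates 2 and 3 and in Sham-LF replicate 3 (1218 CPM), whereas Acta1 is high in PAB-F alone.

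The genes that the study chose as regulated by PAB in isolated cardiomyocytes of other animals were looked up in the whole RV. The list as a whole was taken with no direction, but the study's RV clusters carry one. The study describes cluster 2 as lowered by PAB and clusters 1, 3, 4 and 5 as raised. Of these, clusters 1 and 5 were highest there before failure. Of the 219 genes of that list that could be tested, 9 were DEGs, all of them rises (Acta1, Ankrd23, Maoa, Penk, Ptprt, Sema3d, Sypl2, Tceal7 and Tgfb2). At an unadjusted p under 0.05, 84 were higher and 16 lower (median 0.30). Over all genes tested the shares were 12.6% higher and 12% lower, with 0.134% DEGs that rose, and the cluster counts are to be read against them. By the RV clusters of that study, cluster 3 had 43 of 59 higher and 1 lower (median 1.14) with 6 DEGs, cluster 4 had 18 of 52 higher and 1 lower (median 0.33) with 2 DEGs, and cluster 2 had 0 of 13 higher and 8 lower (median -0.70). Cluster 1 (16 of 58 higher, 1 lower) and cluster 5 (7 of 37 higher, 5 lower, 1 DEG) lay nearer to 0. Without PAB-F replicate 2 there were 9 and 4 higher in clusters 1 and 5, and without PAB-F replicate 3 there were 10 higher in cluster 1 and 9 lower in cluster 5. The summed level of cluster 3 was 1998, 10646 and 9003 CPM in PAB-F and 1378 to 2594 CPM in the shams, with PAB-F replicate 1 below the highest sham.

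The next question was whether these differences were particular to the RV of the banded hearts, for which the LV and Spt libraries of the same 8 animals were used with the animal as a block. The difference between PAB-F and the older shams was larger or smaller in RV than in LV for 227 of 11435 genes (1.99%). Of all genes 0.909% had a positive and 1.08% a negative interaction, and 2562 (22.4%) had an unadjusted p under 0.05. Among the 227 were 18 of the 23 RV DEGs. These 23 were chosen in the same RV libraries, so a high share of them follows in part from that choice. The count of 227 fell to 0 without PAB-F replicate 3, to 15 without Sham-LF replicate 2 and to 46 without Sham-RF replicate 1. It fell to 91 without PAB-F replicate 2 and to 98 without Sham-RF replicate 2. It was 149 without Sham-LF replicate 3. It was 0 without both animals whose RV libraries had atrial markers, where 1377 genes had an unadjusted p under 0.05. Without the animal as a block it was 15.

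For Acta1 the RV exceeded the LV by 2.48 ± 0.260 on the log2 scale (adjusted p = 0.00981, edgeR). In the LV it measured 988, 1087 and 1102 CPM in PAB-F, 1209 and 1138 CPM in Sham-RF and 1598, 1356 and 1287 CPM in Sham-LF, so that in this chamber every banded library lay below every sham. For Ptprt and Sypl2 the interaction was 2.54 ± 0.294 and 2.63 ± 0.308 (adjusted p = 0.00981 for both), for Ankrd23 3.44 ± 0.498 and for Penk 1.55 ± 0.217 (adjusted p = 0.0169 for both). Prodh, the enzyme that starts proline breakdown, had the same lowest adjusted p with the opposite sign (-1.35 ± 0.158, adjusted p = 0.00981). Nppb, which had missed the threshold in the RV alone, passed it here (2.23 ± 0.368, adjusted p = 0.0214), whereas Nppa did not (4.01 ± 1.31, adjusted p = 0.116). In the older shams mean levels, scaled within each chamber, were lower in the RV than in the LV for Acta1 (660 against 1318 CPM) and Ankrd23 (26.8 against 87.3 CPM). The same held for Penk (44.5 against 158 CPM), Nppb (82.1 against 342 CPM), Ptprt and Sypl2. In PAB-F the RV mean lay above that of the LV for each of these but Penk (115 against 141 CPM).

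Several groups had DEGs in this interaction. Stretch sensing and Z-disc proteins had 6 of 18, all positive, among them Nrap (0.85 ± 0.141) and Xirp2 (1.57 ± 0.338). Cell cycle genes had 3 of 26, among them Ccnd2 (1.08 ± 0.235) and Mcm5, a subunit of the replicative helicase (0.93 ± 0.186). All 26 had a positive interaction, as did 50.5% of all genes. In the RV taken alone 23 of the 26 lay above 0, and in the LV taken alone 21 lay below it (median -0.13). In calcium cycling Trdn (-1.09 ± 0.162) and Hrc (-0.91 ± 0.163) passed with a negative sign, and Rcan1 passed with a positive one (1.27 ± 0.167, adjusted p = 0.0156). Of the respiratory chain, 32 of 76 were negative and 0 positive at an unadjusted p under 0.05 (10.7% and 11.7% of all genes), with no DEG and a median of -0.35.

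**Figure D4:**
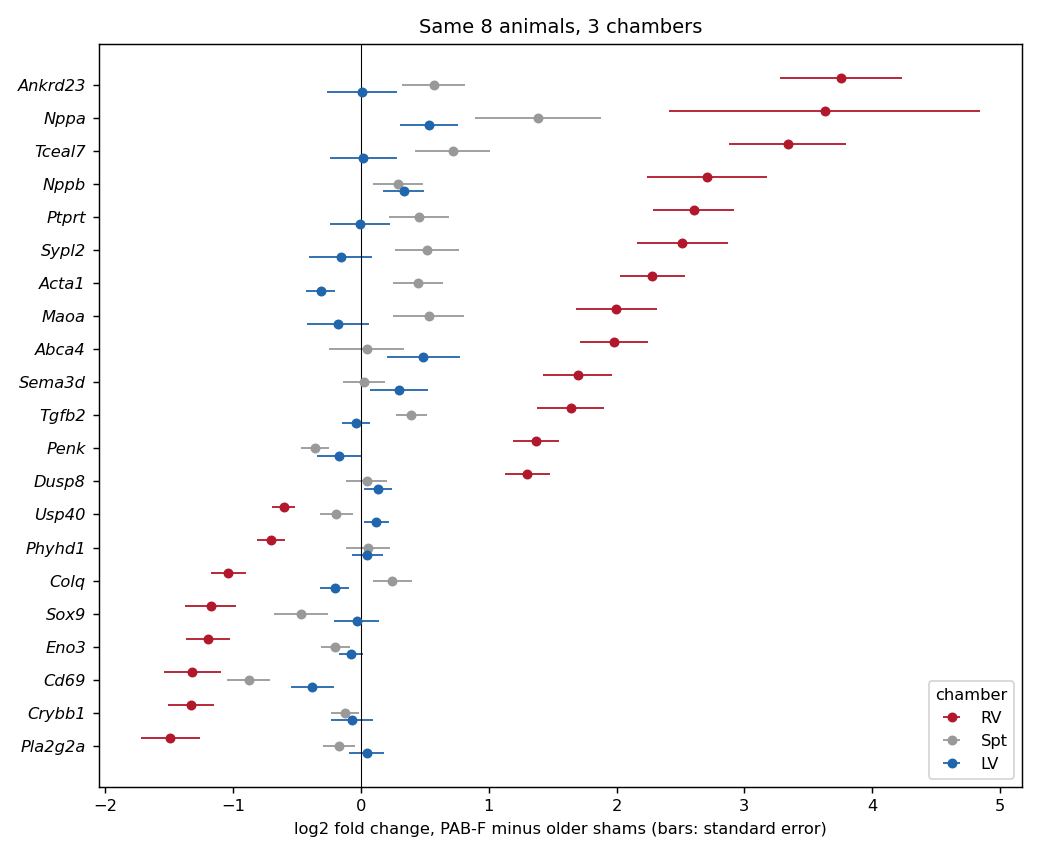
Log2 fold changes (PAB-F minus older shams) of 21 named genes in RV (red), Spt (grey) and LV (blue), with bars of 1 standard error. Acta1, Ankrd23, Tceal7 and Penk lie above 1 in the RV and between -0.36 and 0.72 in the other chambers, and Eno3 lies at -1.20 in the RV, -0.20 in the Spt and -0.08 in the LV.

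Set against the septum, 41 of 11371 genes (0.361%) differed, 31 with a positive (0.273%) and 10 with a negative interaction (0.0879%), and 15 of the 23 RV DEGs were among them. By their library numbers, the RV and septum libraries of these animals belong to different series, so that series and chamber coincide here. The count of 41 was 82 without PAB-F replicate 1, 9 without PAB-F replicate 2, 17 without PAB-F replicate 3 or Sham-LF replicate 3, 20 without Sham-LF replicate 2 and 7 without both animals whose RV libraries had atrial markers. In the septum such markers were high in Sham-LF replicate 1 (Sln 43.1 and Myl4 88.0 CPM). The other septum libraries had 0.33 to 7.47 CPM of Sln and 2.95 to 10.4 CPM of Myl4. Without the animal of Sham-LF replicate 1 the count was 34. Acta1 (1.81 ± 0.171), Ankrd23 (2.95 ± 0.305), Tceal7 (2.58 ± 0.252) and Penk (1.77 ± 0.189) all passed (adjusted p = 0.00136, 0.00162, 0.00136 and 0.00162). Taken alone, neither chamber had a DEG. The LV had 309 of 11220 genes at an unadjusted p under 0.05 (2.75%), with a 0% share of DEGs, and the septum 1490 of 11117 (13.4%), also with 0%. Of the RV DEGs, 1 of the 22 tested in the LV and 6 of the 23 in the septum had an unadjusted p under 0.05. In the septum 20 of the 23 had the sign of the RV, and in the LV 11 of 22. The share of all genes with the sign of the RV in these chambers was not counted. These 2 counts therefore cannot be read as particular to the DEGs. In the septum Tceal7 measured 23.7, 88.3 and 62.2 CPM in PAB-F and 31.8 to 38.6 CPM in the shams, with PAB-F replicate 1 again lowest.

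The 50 chamber genes of the label check gave a further view of the RV. Chosen in 25 other animals, banded ones included, they comprised 29 genes higher in RV and 21 higher in LV. The mean log2 difference of RV from LV, signed by chamber, was 0.310, 0.108 and 0.114 in PAB-F and 0.422, 0.438, 0.492, 0.427 and 0.436 in the older shams, and it had a median of 0.356 (range -0.349 to 0.562) in the other animals. The negative end of this range lies on the LV side, and no animal was left out for it when the genes were chosen. Whether labels were exchanged there was not tested. All 3 banded hearts lay below all shams (0.177 ± 0.115 against 0.443 ± 0.0281, SD). In the RV 28 of the 29 RV genes were below 0 in PAB-F and 17 were lower at an unadjusted p under 0.05 (median -0.26). Of the 21 LV genes 17 were above 0, 7 with an unadjusted p under 0.05 (median 0.23). Over all genes 12% were lower and 12.6% higher, and 49.9% lay above 0. The LV genes include the macrophage markers Adgre1 (0.62) and Cd68 (0.45), and the part of cell types in the shift was not tested. In the LV the medians of the RV genes and of the LV genes were near 0 (-0.0014 and -0.04). Examples, picked after their values were seen, are the RV gene Phlda1, with a log2 fold change of -0.86 in the RV (adjusted p = 0.0630), and the LV gene Hopx, a homeodomain regulator of cardiomyocytes, with one of 0.84 (adjusted p = 0.104).

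**Figure D5:**
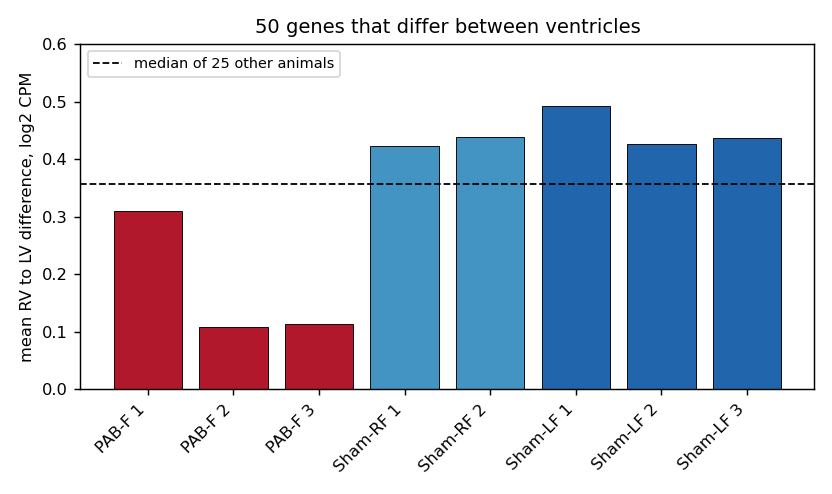
Mean log2 difference of RV from LV over 50 chamber genes, signed so that positive values mean the RV pattern, for the 8 animals (bars, PAB-F red, Sham-RF light blue, Sham-LF dark blue), with the median of the other 25 animals (0.356) as a dashed line. The PAB-F bars stand at 0.310, 0.108 and 0.114 and those of the 5 shams between 0.422 and 0.492.

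Last, the RV loaded by PAB was set against the RV of animals in left heart failure after the same kind of clip around the aorta (aortic banding, AOB-F, n = 4, age 30 weeks, 24 weeks after surgery). There was no DEG (0%; 372 of 11309 genes, 3.29%, at an unadjusted p under 0.05; lowest adjusted p = 0.289, edgeR). The lowest p belonged to genes lower in PAB-F, namely the stress-induced mTOR inhibitor gene Ddit4 (-0.77 ± 0.123), Phyhd1 (-0.65), Rec114 (-1.02 ± 0.180) and Gramd1b (-0.80 ± 0.146). The AOB-F libraries varied widely among themselves. Acta1 measured 3728, 441, 513 and 4206 CPM in them, and Ankrd23 446, 33.2, 35.4 and 428 CPM. Penk measured 169, 48.6, 42.8 and 192 CPM and Eno3 407, 784, 781 and 442 CPM. For Acta1, AOB-F replicates 1 and 4 thus lay within the PAB-F range and replicate 2 below every older sham. Replicate 3 lay close to the lowest older sham (517 CPM). Their order is not settled, as the levels of AOB-F and of the shams were scaled in different fits. For Acta1 the log2 difference of PAB-F from AOB-F was 0.55 ± 0.655. Atrial markers were high in AOB-F replicate 2 (Myl7 508, Sln 120 and Myl4 181 CPM). The other AOB-F libraries had 11.4 to 90.5 CPM of Myl7, 1.33 to 8.42 CPM of Sln and 16 to 20.8 CPM of Myl4. When AOB-F replicate 2 was left out, PAB-F against AOB-F again gave no DEG. Leaving it out together with PAB-F replicate 3 was not tested. AOB-F and PAB-F share their sham libraries here, and AOB-F against the older shams gave 0 DEGs as well (0%; 1594 genes, 14.1%, at an unadjusted p under 0.05).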

How the data were processed

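Per the study's methods and processing notes, the authors used Trim Galore for trimming, STAR for mapping to the rat genome and featureCounts for counting per gene. The deposited table holds whole-number counts for 17337 genes, which the authors had not normalized. It also holds FPKM and a signal that the authors made by dividing the counts by DESeq2 size factors, and neither was used here. Whether counting used the strand is not stated, so genes overlapping on opposite strands cannot be told apart. Columns were joined to samples by title. The column of Sham-LF replicate 1 matches its title, while its description names a Sham-RF column, and the title was followed. No pair of replicates agreed within sampling noise (chi-square per gene 5.65 to 57.3).

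The 8 RV libraries were compared in edgeR 4.0.16 under R 4.3.3 by the quasi-likelihood test after TMM scaling and filterByExpr, without covariates, with Benjamini-Hochberg adjustment over all genes tested. Standard errors are the log2 fold change divided by the square root of F. Sham groups were separated in a fit of 3 groups, chambers were compared with the animal as a block, and AOB-F entered a fit of 12 libraries. Levels are CPM after TMM scaling. DESeq2 1.42.0 was an alternative. The scripts were tested on simulated data. Library sizes of 12.8 to 18.0 M (mega) limit precision for genes near 1 CPM.

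Genes named are the 6 the study followed by RNA-FISH, the DEGs of at least 1 CPM without overlap that rose (12) or fell (8) most, filled up by lowest p, up to 6 DEGs or the 3 lowest p of each group, and the 4 lowest p of every other comparison. Symbols beginning with LOC or Mir were passed over (2 DEGs), and some results are not reported here. Further members are given for their role in a group. The members, gene lists and comparisons were chosen with earlier results of these data known.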

Additional observations from a re-analysis of the deposited data

Results flagged for a closer look

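Of 108 named genes, 7 (6.48%) had 1 of the 5 older shams far from the other 4 by Dixon's criterion (gap over range above 0.71), and chance alone would flag about 1 group in 20. Nppa stood at 1218 CPM in Sham-LF replicate 3, where Myl4 (169 CPM), Kcnj3 (21.3 CPM) and Adcy6 (185 CPM) were also highest. Col8a1 was lowest in Sham-LF replicate 1 (4.36 CPM). Zfp36, an immediate early gene, was highest in Sham-RF replicate 1 (131 CPM), and S100a9, a neutrophil marker, in Sham-LF replicate 2 (14.7 CPM).

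Of 21 genes checked between chambers, 17 differed between RV and LV by the interaction of banding with chamber (adjusted p under 0.05, edgeR). Over all 11435 genes tested this held for 227 (1.99%). The 21 were named for their differences in the same RV libraries or for RNA-FISH in the study. Acta1, Ankrd23, Nppb, Penk and Tceal7 were in turn picked for RNA-FISH with these whole-heart data in hand. The study gives their strong regulation in the RV as a reason. A high share among the 21 follows in part from these choices. Positive log2 differences were those of Nppb (2.23), Penk (1.55), Acta1 (2.48), Ankrd23 (3.44), Tceal7 (3.06), Ptprt (2.54), Sypl2 (2.63), Maoa (2.08), Tgfb2 (1.58) and Dusp8 (1.15). Negative ones were those of Pla2g2a (-1.51), Eno3 (-1.18), Colq (-0.844), Phyhd1 (-0.741), Usp40 (-0.73), Cd69 (-0.967) and Sox9 (-1.12).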

How the results depend on the processing

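For PAB-F against the older shams in the RV, the 23 DEGs became 794 with DESeq2 (22 shared), 46 without the filter on low counts, 5 in a fit of 21 RV libraries of 1 library series, 0 in the fits of 12 and of 33 RV libraries, and 181 in the latter with library series as a covariate. RLE scaling gave 21. Leaving out 1 library gave 0 to 524, and leaving out both libraries with atrial markers or Sham-LF replicates 1 and 2, chosen after seeing the data, gave 0 in each case. With the replicate block the count was 117, all 23 included, but same-numbered libraries did not deviate together throughout (correlations -0.28 to 0.484), so the numbers were not taken to pair animals. For PAB-F against Sham-RF, 0 DEGs became 89 with DESeq2 and 0 to 79 without 1 library. For RV minus LV, 227 became 15 without the animal block and 0 to 309 without 1 library. It was 0 without both animals with atrial markers. For RV minus Spt, 41 became 9 to 82 without 1 library and 7 without both animals with atrial markers. PAB-F against Sham-LF with 0 gave 0 to 3301 without 1 library, and Sham-RF against Sham-LF with 0 gave 0 to 254, both added after seeing the data. PAB-F against AOB-F gave 0 in every fit run. Of 1938 values of 108 named genes under alternatives, 1604 kept direction and side of the threshold, 205 lost and 128 gained significance, and 1 reversed (Myl4, -2.51 to 5.03 without 1 library, the former without PAB-F replicate 3). The causes were not tested. Depth limits the genes near 1 CPM.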
